A study of Bos taurus with 8 samples.

Results

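The microRNAs miR-143 and miR-145 were examined in heifer mammary tissue, as the 2 entries named bta-miR-143 and bta-miR-145 among the 763 bovine miRNAs of an Agilent array. Both were chosen by name. Together they had 5 probes, and both were among the 270 miRNAs that entered the test, for which a miRNA had to be detected in all 4 animals of one breed or the other. The array held no further variant of either miRNA. Tissue came from 4 Limousin heifers (beef breed, group LM) and 4 Holstein-Friesian heifers (dairy breed, group HF). All 8 were healthy and not pregnant, with a labelled age of 20 months and 2 years in the protocol, and the labels give no treatment. Part of the gland, kept in RNAlater, gave total RNA; 100 ng per animal took up the dye Cyanine 3-pCp and went onto its own one-colour array. The tissue was whole gland, so that fewer cells of a type and less of a miRNA per cell cannot be told apart.

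In mammals miR-143 and miR-145 are made from neighbouring hairpins of 1 primary transcript, whose promoter responds to serum response factor and myocardin in smooth muscle. They are known for keeping smooth muscle in its contractile state, through targets among actin regulators and transcription factors such as KLF4 and ELK1. In the mammary gland the cells with a contractile programme are the smooth muscle of vessels and the myoepithelium, the basal layer that squeezes the alveoli and ducts during milk ejection, while fibroblasts can also express both. RefSeq (assembly ARS-UCD2.0) lists MIR143 and MIR145 on cattle chromosome 7 within 1 long non-coding RNA gene, LOC132345768, which spans both, and with 0 genes between them.

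The array reads each miRNA with short complementary probes that start at the same base and differ in length, and they are shown because only some of them gave a usable signal. Each is written from 5′ to 3′ as the array files list it, with the bases that go beyond the shortest probe of the same miRNA in capitals.
miR-143, 14 bases: cgagctacagtgct
miR-143, 15 bases: cgagctacagtgctT
miR-143, 16 bases: cgagctacagtgctTC
miR-145, 17 bases: agggattcctgggaaaa
miR-145, 18 bases: agggattcctgggaaaaC
The array annotation places the longest miR-143 probe at chr7:62809366-62809380 and the longest miR-145 probe at chr7:62810754-62810770 in UMD 3.1, with 1373 bases between them and no strand given. Each annotated span is 1 base shorter than its probe, and each probe maps to 1 place. The 16-base probe has a GC content of 56.2% and the 17-base probe of 47.1%. No probe of any other miRNA on the array shared a run of 10 bases with any of the 5.

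For the series as a whole, Limousin arrays were brighter: the 75th percentile of the probes detected on all arrays, divided by its mean over the 8, was 0.981 to 1.64 in Limousin and 0.580 to 0.977 in Holstein-Friesian. The values below were therefore scaled to that percentile before log2 was taken. Per the file headers all arrays lay on 1 slide in 1 scan, with each breed in a row of its own, and an effect of the row cannot be told apart from breed. The replicate number was also the place within the row. Between 28.6% and 35.5% of the 45780 miRNA spots per array were well above background, 0 spots were saturated, and the number of arrays limits the precision. Holstein-Friesian replicate 2 stood apart on the second principal component (16.2% of the variance), at -6.41 against -0.024 to 2.20 in the other arrays, and results are also given without it. Across all 270 tested miRNAs 113 passed limma's test at an adjusted p under 0.05, which is 41.9%, with 13.7% higher and 28.1% lower in Limousin.

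Before scaling, the 16-base probe of miR-143 gave intensities of 203, 266, 154 and 216 in Limousin replicates 1 to 4, against 112, 106, 159 and 106 in Holstein-Friesian replicates 1 to 4. All 20 of its spots were well above background on each array. Limousin replicate 3 lay just under Holstein-Friesian replicate 3, and the other Limousin arrays lay above all of Holstein-Friesian. The 18-base probe of miR-145 gave 4923, 5867, 3974 and 5130 in Limousin, against 3139, 2556, 4653 and 2820 in Holstein-Friesian. Here too replicate 3 of Limousin fell below replicate 3 of Holstein-Friesian. Its spots on 1 array, 26 to 30 after outliers were left out, varied with a coefficient of variation of 3.16% to 5.53% in Limousin and 2.27% to 5.67% in Holstein-Friesian. For the 16-base miR-143 probe, with 14 to 20 spots used, this was 1.93% to 6.43% in Limousin and 4.55% to 9.40% in Holstein-Friesian.

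The shorter miR-143 probes were weak. The 14-base probe averaged 3.31 to 7.28 intensity units in Limousin and 2.18 to 2.75 in Holstein-Friesian, and it counted as detected on 0 of 8 arrays. With 1 more base, the 15-base probe averaged 18.1 to 33.8 in Limousin and 12.0 to 18.3 in Holstein-Friesian. Of its 20 spots 14 to 20 were well above background in Limousin, against 0 to 8 in Holstein-Friesian, which made it detected on 4 of 4 and 0 of 4 arrays. After scaling it stood at 4.25 ± 0.079 in Limousin and 4.27 ± 0.064 in Holstein-Friesian (log2, SD, n = 4 each), and it was not well above background in Holstein-Friesian, so no fold is given. The level of miR-143 thus rests on the 16-base probe. The 17-base probe of miR-145 was well above background in 30 of 30 spots on every array.

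**Figure D1:**
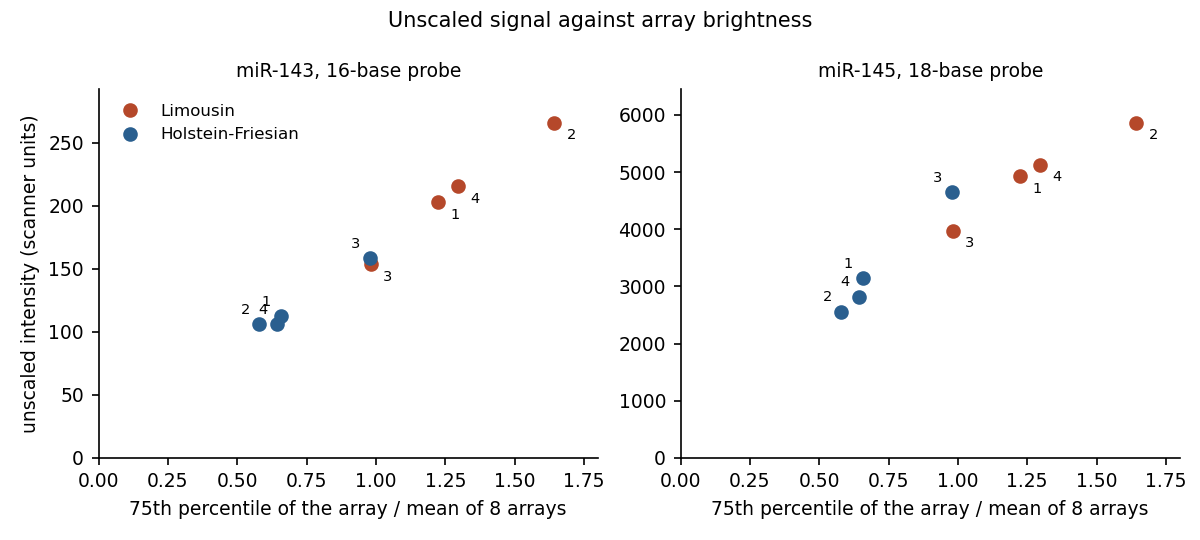
Unscaled intensity of the 16-base miR-143 probe and the 18-base miR-145 probe (vertical axes) against the brightness of each array (75th percentile over probes detected on all arrays, divided by its mean); 1 point per array, numbered by replicate. Both signals climb with brightness, and replicate 3 of each breed, at 0.981 in Limousin and 0.977 in Holstein-Friesian, share nearly the same brightness.

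The unscaled signal of both miRNAs followed the brightness of the array. Over the 8 arrays, log2 intensity and the log2 array factor had a Pearson's r of 0.994 for miR-143 (Spearman's rho 0.952) and 0.979 for miR-145 (rho 0.976). The adjusted p of r in an exact permutation test over pairings was 0.000231 for each (adjusted over 7 relations; rho 0.00266 and 0.00139). Without the 2 arrays farthest from the median, r was 0.991 and 0.969. The factor is a percentile of the detected probes of the same array, with probes of both miRNAs among them. This r is thus no independent test, other miRNAs were not set beside it, and nothing is read from its p. Replicate 3 of each breed had nearly equal brightness, a pair that was singled out after its values were seen. There miR-143 was at 0.970 times and miR-145 at 0.854 times the Holstein-Friesian intensity in Limousin.

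After scaling, miR-143 was nearly level between the breeds. Its log2 signal was 7.37, 7.34, 7.29 and 7.38 in Limousin replicates 1 to 4, against 7.42, 7.52, 7.34 and 7.36 in Holstein-Friesian replicates 1 to 4. The groups overlapped, with Holstein-Friesian replicate 2 the highest and Limousin replicate 3 the lowest of the 8. The means were 7.35 ± 0.040 in Limousin and 7.41 ± 0.079 in Holstein-Friesian (SD, n = 4 each). The difference of -0.06 (Limousin minus Holstein-Friesian, log2, SE 0.099) had a 95% confidence interval of -0.28 to 0.16 and did not pass (limma adjusted p = 0.640). As a fold it was 0.957, with an interval of 0.821 to 1.12. Without Holstein-Friesian replicate 2 the difference was -0.03.

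The signal of miR-145 was lower in every Limousin array than in every Holstein-Friesian array. It was 11.97, 11.80, 11.98 and 11.95 in Limousin, against 12.22, 12.11, 12.22 and 12.10 in Holstein-Friesian. The groups did not overlap, the gap between them lying between 11.98 and 12.10. Such a separation was seen for 36.7% of the 270 tested miRNAs, and for 20.7% with Limousin lower. The means were 11.93 ± 0.085 in Limousin and 12.16 ± 0.069 in Holstein-Friesian (SD, n = 4 each). The difference of -0.23 (SE 0.10) had a 95% confidence interval of -0.46 to -0.0050 and did not pass after adjustment (unadjusted p = 0.0460, limma adjusted p = 0.0920). As a fold it was 0.851, with an interval of 0.727 to 0.997. An unadjusted p under 0.05 was reached by 50.7% of the tested miRNAs. Without Holstein-Friesian replicate 2 it was -0.25 (limma adjusted p = 0.0658).

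**Figure D2:**
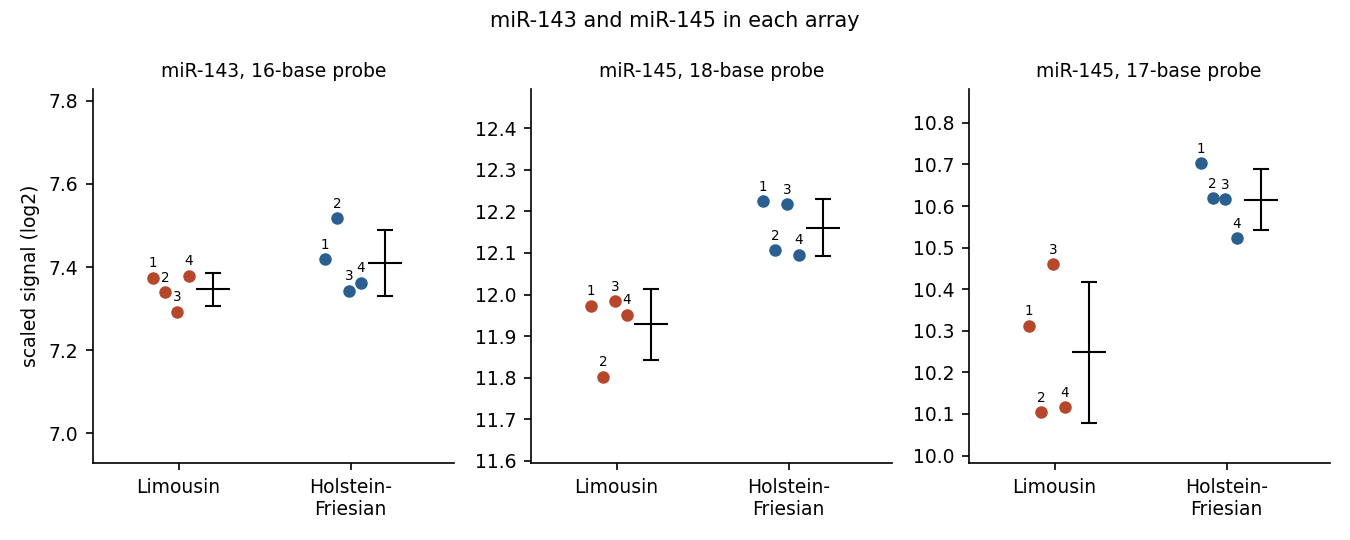
Scaled log2 signal of miR-143 (16-base probe) and miR-145 (18-base and 17-base probes) by breed; points are arrays numbered by replicate, bars are the mean ± SD of 4 arrays, and each axis spans the same range. Limousin and Holstein-Friesian overlap for miR-143 (means 7.35 and 7.41) and are apart for both probes of miR-145 (11.93 and 12.16, 10.25 and 10.62).

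The 17-base probe of miR-145 also separated the breeds, with a larger difference between the means. It read 10.31, 10.10, 10.46 and 10.12 in Limousin, against 10.70, 10.62, 10.62 and 10.52 in Holstein-Friesian. No Limousin array reached the lowest Holstein-Friesian array. With this probe in place of the longer one, the log2 difference was -0.37 and passed (limma adjusted p = 0.0296), and with the mean of both probes it was -0.30 (limma adjusted p = 0.0484). The call of miR-145 thus differed between probes that share 17 bases. Fitting and removing the trend with probe GC and length on each array also put it past the threshold, at -0.37 (limma adjusted p = 0.0171), and left miR-143 at 0.029 (limma adjusted p = 0.815).

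Both directions are relative to the scaling. Without scaling, miR-143 was higher in Limousin by 0.79 (limma adjusted p = 0.0133) and miR-145 by 0.62 (limma adjusted p = 0.0495), beside a median of 0.78 over the 270 tested miRNAs. Measured from the median of the tested miRNAs, which was -0.07 under the main scaling, miR-143 lay at 0.0051 and miR-145 at -0.16. The deposited value table, scaled by the authors, held 0.36, 0.35, 0.29 and 0.34 for miR-143 in Limousin, against 0.050, 0.29, 0.063 and 0.067 in Holstein-Friesian. There the lowest Limousin value, 0.291, and Holstein-Friesian replicate 2, at 0.290, nearly met. For miR-145 the table held 5.78, 5.61, 5.84 and 5.70 in Limousin, against 5.72, 5.75, 5.78 and 5.65 in Holstein-Friesian, which overlap. On that scale the median difference of the tested miRNAs was 0.25, miR-143 lay at 0.22 (limma adjusted p = 0.0767) and miR-145 at 0.011 (limma adjusted p = 0.906). Under both tables miR-145 was below the median, and in the deposited one it lay at -0.24 from it. With normexp it lay above the median, at 0.20 from it, as did miR-143 at 0.16.

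**Figure D3:**
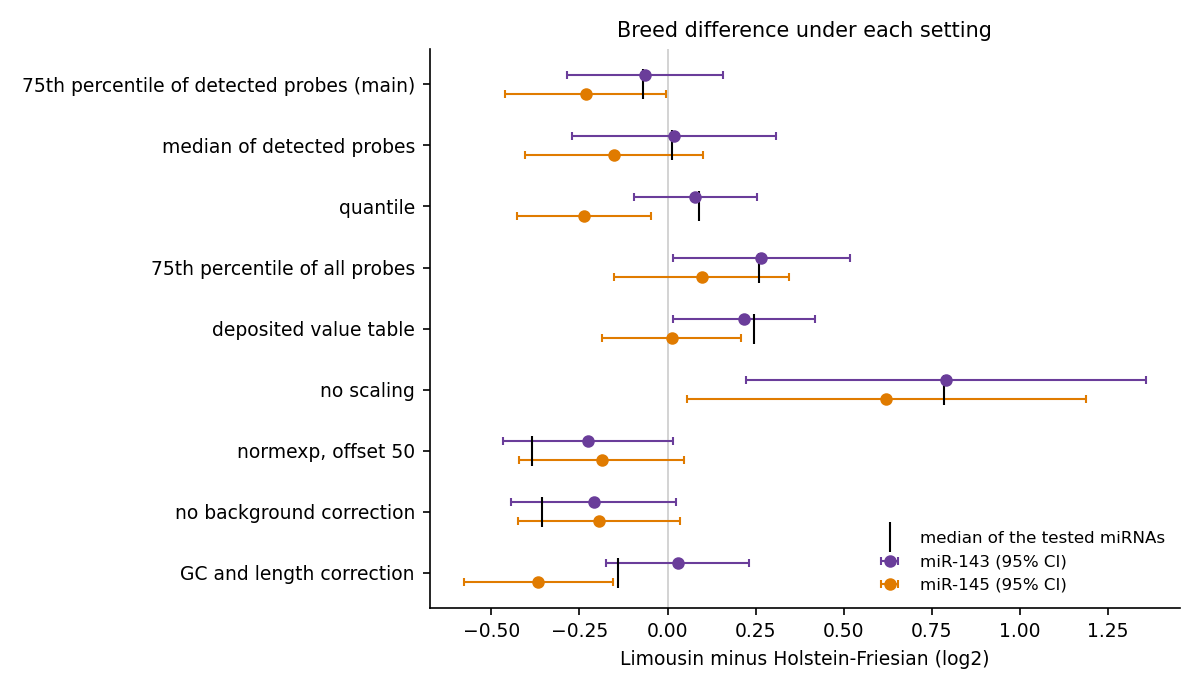
Limousin minus Holstein-Friesian difference (log2) of miR-143 and miR-145 with 95% confidence intervals from limma under 9 settings; black ticks mark the median of the tested miRNAs. The miR-145 point lies left of the median under the scaling settings and with the GC and length trend removed, and right of it under normexp and with no background correction.

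The ratio of miR-143 to miR-145 within an array is free of any factor common to the array. Its level compares different probes and has no meaning of its own, so it is given relative to the Holstein-Friesian geometric mean. It was 1.11, 1.22, 1.04 and 1.13 in Limousin replicates 1 to 4, against 0.963, 1.12, 0.918 and 1.01 in Holstein-Friesian. Limousin was higher on average, but Holstein-Friesian replicate 2 lay above Limousin replicates 1 and 3. The log2 difference was 0.17 (SE 0.077, n = 4 each), with a two-sided exact permutation p of 0.0857, where the 70 splits allow no p under 0.0286. The shifts that this test does not reject at 0.05 ran from -0.10 to 0.41. Without Holstein-Friesian replicate 2 the difference was 0.22 (exact permutation p = 0.0571).

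The 2 probes of miR-145 give a yardstick, since both are listed for the same miRNA. The 18-base over the 17-base signal was 1.08, 1.11, 0.985 and 1.22 in Limousin, against 0.983, 0.961, 1.04 and 1.02 in Holstein-Friesian, again relative to the Holstein-Friesian geometric mean. Its log2 difference was 0.13 (SE 0.069; exact permutation p = 0.0857), close in size to that of miR-143 over miR-145. With the 17-base probe below the line, miR-143 over miR-145 was 1.20, 1.36, 1.03 and 1.38 in Limousin, against 0.947, 1.07, 0.954 and 1.03 in Holstein-Friesian. It differed by 0.30 (SE 0.11; exact permutation p = 0.0857; interval -0.065 to 0.55). The p adjusted over these 3 ratios was 0.0857 for each. With normexp and with no background correction the ratio of miR-143 to miR-145 had the opposite sign, at -0.040 and -0.015. Local background around the 16-base miR-143 spots averaged 44.98 to 48.0 units in Limousin and 46.6 to 49.1 in Holstein-Friesian.

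**Figure D4:**
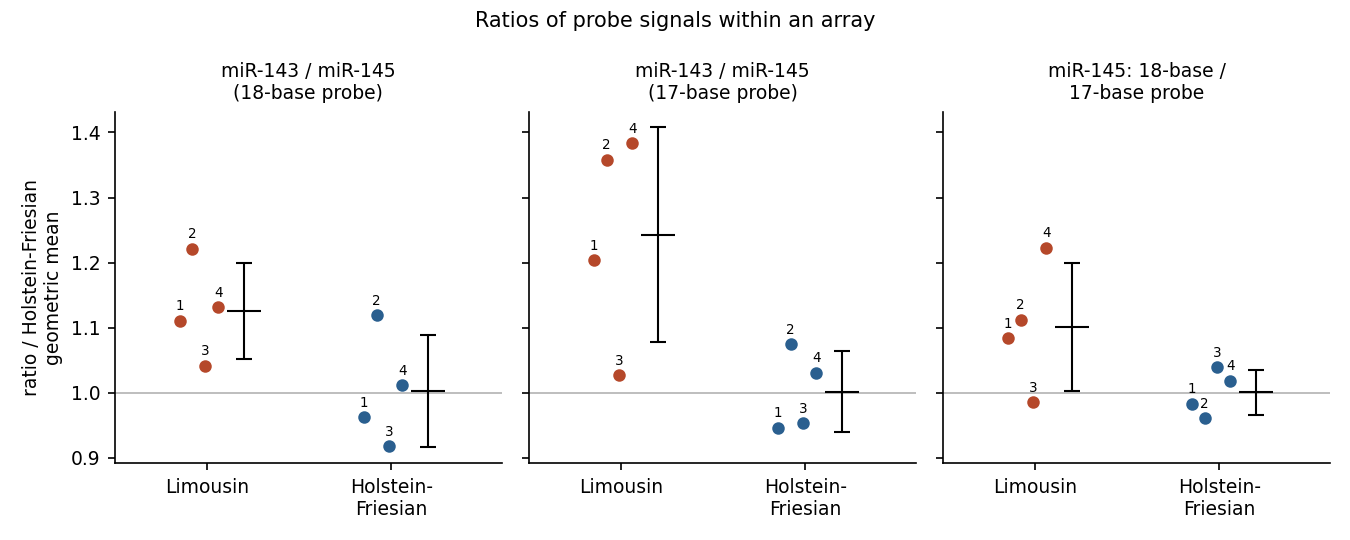
Ratios of probe signals within each array, relative to the Holstein-Friesian geometric mean (linear scale); points are arrays numbered by replicate and bars the mean ± SD of 4 arrays. The ratio of miR-143 to miR-145 is 1.04 to 1.22 in Limousin and 0.918 to 1.12 in Holstein-Friesian, and the ratio between both miR-145 probes moves over a like range.

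The signals of both miRNAs were correlated before scaling, and after it their correlation did not pass the test. Unscaled, Pearson's r between miR-143 and miR-145 was 0.969 over the 8 arrays (rho 0.976; exact permutation p of r 0.000231 and of rho 0.00139, adjusted over 7 relations), and 0.938 for deviations from the breed means (rho 0.929; adjusted p 0.000477 and 0.00391). Without the 2 arrays farthest from the miR-143 median these were 0.954 and 0.848. Since both unscaled signals followed the brightness of the array, the unscaled r cannot tell co-variation of the pair from shared brightness. Nothing is read from it, or from its p, about the pair. After scaling r was 0.349 (rho 0.381; exact permutation p adjusted 0.470 and 0.420), and 0.405 without the 2 farthest arrays. For deviations from the breed means it was -0.215 (rho -0.262, adjusted p 0.595 and 0.536), and 0.240 without the 2 farthest arrays. All p-values for deviations came from shuffling over all 8 arrays without regard to breed. Deviations can be swapped only within a breed, so these p-values are approximate and may be too small. Each breed alone has too few arrays for a correlation. In Limousin the deviations of both miRNAs had the same sign on replicates 1, 2 and 4 and opposite signs on replicate 3. In Holstein-Friesian they had the same sign on replicates 1 and 4 and opposite signs on replicates 2 and 3. Even the 2 probes of miR-145 had an r of only 0.675 in deviations from the breed means (rho 0.714, adjusted permutation p 0.0949 and 0.0806), and 0.487 without the 2 farthest arrays.

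Both miRNAs varied little among animals of a breed. Pooled over the breeds, the within-breed SD was 0.062 log2 units for miR-143, the smallest of the 270 tested miRNAs, and 0.077 for miR-145, the next smallest, beside a median of 0.213. Without Holstein-Friesian replicate 2 the SD of miR-143 was 0.040, still the smallest, and that of miR-145 was 0.080, in place 13. Leaving out 1 array at a time, the place of miR-143 ran from 1 to 5 and that of miR-145 from 1 to 14. These places depend on the scaling. With the median of detected probes miR-143 came 44th and miR-145 2nd, with quantile normalization they came 12th and 20th, and without scaling 59th and 70th. In the deposited value table they came 7th and 6th. The 17-base probe of miR-145 alone came 56th, at an SD of 0.131.

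**Figure D5:**
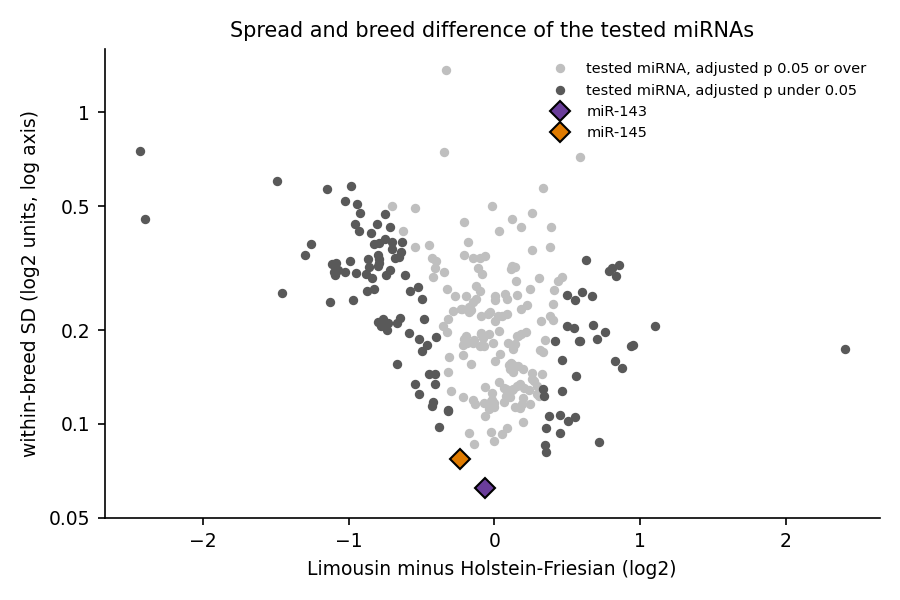
Within-breed SD (vertical, log axis, log2 units) against the Limousin minus Holstein-Friesian difference (horizontal, log2) of the 270 tested miRNAs under the main scaling; dark points have a limma adjusted p under 0.05. The diamonds of miR-143 (0.062) and miR-145 (0.077) are the lowest points of the plot.

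The miRNAs with the pattern most like miR-143 were ranked by Pearson's r over the 8 arrays, as a description with no test, and they share arrays and scaling. The 5 highest were miR-429, a member of the epithelial miR-200 family (r = 0.850), miR-345-5p (0.847), miR-2373-3p (0.844), the red cell miRNA miR-451 (0.821) and miR-6524 (0.819). None of these 5 differed between the breeds past the threshold under the main scaling. With no background correction miR-345-5p (limma adjusted p = 0.033), miR-2373-3p (0.0060), miR-451 (0.025) and miR-6524 (0.0055) were lower in Limousin, and the same 4 were with normexp. Of the 270 tested miRNAs, 170 passed with no background correction, 27 of them higher, and 146 passed as lower with normexp. The median differences were -0.36 and -0.38, so nothing is read from these 4 calls. The entry miR-6524 was detected on 4 Limousin and 2 Holstein-Friesian arrays. Without scaling miR-429 (0.0364) and miR-6524 (0.0450) were higher, as were 173 of the 270. For these 5, r with miR-143 without Holstein-Friesian replicate 2 was 0.211 to 0.480. Closest to miR-145 were miR-191 (0.945), miR-2413 (0.934), miR-181a (0.928), miR-1434-3p (0.915) and miR-2391 (0.912). Since the breeds do not overlap for miR-145, choosing by r over all arrays favours miRNAs that are lower in Limousin, as 28.1% of all tested miRNAs were, and nothing is read from the direction of these 5. As a description, the log2 difference was -0.45 for miR-191, -2.43 for miR-2413, -0.51 for miR-181a, -1.46 for miR-1434-3p and -0.67 for miR-2391. Without scaling it was 0.40 for miR-191, 0.34 for miR-181a and 0.18 for miR-2391. With the percentile over all probes it was -0.12 for miR-191 and -0.18 for miR-181a. In deviations from the breed means their r with miR-145 was 0.581 to 0.775. Among 269 other miRNAs, miR-145 came 72nd by its r with miR-143, and miR-143 came 124th by its r with miR-145.

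Of the smooth muscle and myoepithelium list, miR-143 and miR-145 were tested and 0 of 2 passed. Its remaining member, miR-490, known from smooth muscle, was detected on 0 of 8 arrays. The skeletal and heart muscle list had 1 tested entry of 7, miR-1, with a difference of 0.26 (limma adjusted p = 0.487). This turned to -0.40 with no background correction (limma adjusted p = 0.0200), -0.43 with normexp (0.0127) and -0.26 with the GC and length trend removed (0.548), and was 1.11 without scaling (0.0014). In the same order, the median of all tested miRNAs was -0.36, -0.38, -0.14 and 0.78. The entry miR-1 was detected on 4 Limousin and 2 Holstein-Friesian arrays, miR-133a on 1 and 0, miR-133b on 2 and 1, and miR-206, miR-208a, miR-208b and miR-499 on none. The list of other miRNAs known to act on the smooth muscle phenotype had 16 entries, of which 11 were tested. Of these 6 rose, 0 fell and 5 did not pass, with a median of 0.45, where 13.7% of all tested miRNAs rose and the median was -0.07. The 2 with the smallest p were miR-204, a known inhibitor of smooth muscle calcification, at 2.40 (limma adjusted p = 1.2e-06), and miR-222, which promotes smooth muscle proliferation, at 0.50 (limma adjusted p = 0.0066). With the GC and length trend removed 5 rose and 1 fell, and with no background correction 5 rose and 2 fell.

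Markers of other cells that the gland holds moved as follows, where 13.7% of all tested miRNAs rose under the main scaling. These lists were also chosen with earlier results of these data known, so nothing is read from their counts. In the basal epithelium list 2 of 3 rose, miR-221 by 0.45 (limma adjusted p = 0.0094) and miR-222, and with no background correction 0 of 3. Both miR-221 and miR-222 are also among those that rose in the smooth muscle phenotype list, so these counts are not independent. In the luminal epithelium list 0 of 5 passed, with miR-141 at 0.24 (0.302) and miR-200c at -0.17 (0.227), and 2 of 5 rose without Holstein-Friesian replicate 2 and with the percentile over all probes, 5 of 5 without scaling, and 1 fell with quantile normalization. Of the 270 tested miRNAs, 56 rose without that array, 104 with that percentile and 173 without scaling, and 43 fell with quantile normalization. The endothelial arms miR-126-3p, at 0.20 (limma adjusted p = 0.231), and miR-126-5p, at 0.41 (0.0783), did not pass under the main scaling. Both passed as higher with the percentile over all probes (0.0124 and 0.0068), in the deposited table (0.0163 and 0.0213) and without scaling. In these settings 104, 81 and 173 of the 270 tested miRNAs passed as higher. In the fibroblast stroma list 3 of 4 rose, led by miR-199b, at 0.59 (0.0089), and miR-199a-3p, at 0.47 (0.0116), while miR-214 was at 0.0048 (0.981). With the GC and length trend removed 0 of 4 rose. Among adipocyte entries 2 of the 3 tested fell, miR-193a-5p, at -0.67 (0.0072), and miR-365-3p, at -0.40 (0.0402), where 28.1% of all tested miRNAs fell. Of these, miR-193a-5p no longer passed with that trend removed (0.112), with the percentile over all probes (0.0572) or with quantile normalization (0.0508). Nor did miR-365-3p with the percentile over all probes (-0.070, 0.681), in the deposited table (-0.12, 0.399) or with the median of detected probes (0.110). Without scaling 0 fell and 1 rose, and 1 fell when any one of Limousin replicates 1, 2 and 3 or Holstein-Friesian replicates 1, 3 and 4 was left out. Of 4 tested leukocyte entries 2 rose, miR-155, at 0.95 (0.0012), and miR-142-5p, at 0.56 (0.0223), the second no longer passing with that trend removed (0.342); with no background correction 2 rose and 1 fell. Only 1 rose when any one of Limousin replicates 1 and 4 or Holstein-Friesian replicates 1 and 4 was left out. In the red blood cell list miR-451 was at -0.35 (0.546). With no background correction it was at -0.62 (0.0250), beside a median of -0.36 over all tested miRNAs. The entries miR-144 and miR-486 were detected on no array.

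A sum over the probes of a list follows its brightest probe and is given as a description only. Over the tested members, the scaled signal of the smooth muscle and myoepithelium list was 3734 to 4208 in Limousin and 4541 to 4955 in Holstein-Friesian, of which miR-145 made up 95.7% to 96.3% in Limousin and 96.0% to 96.7% in Holstein-Friesian. That of the fibroblast stroma list was 6608 to 8192 in Limousin and 4994 to 5649 in Holstein-Friesian. The adipocyte sum was 1485 to 1618 in Limousin and 1798 to 2062 in Holstein-Friesian. The list of miRNAs acting on the smooth muscle phenotype summed to 25592 to 27193 in Limousin and 17563 to 22910 in Holstein-Friesian, of which miR-26a, which did not pass (limma adjusted p = 0.0546), made up 47.9% to 53.4% in Limousin and 52.0% to 53.4% in Holstein-Friesian. The ranges of these 4 sums did not overlap, as was so for 36.7% of single miRNAs, and those of the other lists did. Skeletal and heart muscle summed to 17.96 to 46.7 in Limousin and 20.0 to 34.0 in Holstein-Friesian, and basal epithelium to 3869 to 4757 in Limousin and 3159 to 4291 in Holstein-Friesian. Luminal epithelium summed to 14588 to 16493 in Limousin and 14193 to 16624 in Holstein-Friesian, and endothelium to 3180 to 4006 in Limousin and 2737 to 3509 in Holstein-Friesian. Leukocyte sums were 1477 to 1895 in Limousin and 1026 to 1539 in Holstein-Friesian, and red blood cell sums 31.1 to 50.4 in Limousin and 28.9 to 135 in Holstein-Friesian. Whether a different mix of cells had a part in the lower miR-145 signal was not tested.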

How the data were processed

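Spot intensities came from Agilent Feature Extraction 10.10.1.1, background-subtracted and detrended, per the file headers. The deposited value table holds log2 values, equal to the log2 total gene signal of the deposited files minus 1 constant per array to within 9.7e-06. Its direction and scale were settled that way, and its column medians ran from -9.79 to -8.53. The sources used here do not state the constant, but the 75th percentile of each column lay between -0.0216 and -0.00097. Each array was thus set to about its 75th percentile over all entries, close to the setting with the percentile over all probes. From the intensities, spots flagged as outliers were left out, spots of a probe were averaged, and each array was divided by the 75th percentile of the 429 probes that every array detected (more than 50% of spots well above background). Values under 1 were set to 1 before log2, and a miRNA took its brightest probe. Breeds were compared with limma 3.58.1 (R 4.3.3) over the 270 tested miRNAs with Benjamini-Hochberg adjustment at 0.05, without a block. Single values were tested by exact permutation, with all splits or pairings enumerated in Python 3.11.15 with numpy 2.4.6. With 1 array per animal, p-values cover the spread of animals and arrays together. In limma the SE of a miRNA is drawn toward the spread of all fitted miRNAs. For miR-145 it was 0.10 in the main fit and 0.053 with no detection filter, so its interval and call depend on this. The fit with no detection filter takes in all 763 miRNAs, of which 463 were detected on no array. On simulated data with 270 miRNAs drawn 20 times for this comparison, limma recovered 10.7% of changes of 0.25 log2 units, 59.7% of 0.5, 89% of 1 and 99.7% of 2, with 4.56% false calls. Named miRNAs were both members, the 5 with the highest Pearson's r with each over the arrays, and in each list the 2 with the smallest p. The members and lists were chosen with earlier results of these data known. Alternatives changed the scaling, background, probe, filter, fit and samples.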

Additional observations from a re-analysis of the deposited data

Results flagged for a closer look

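The 15-base probe of miR-143 stood at 4.36 on the scaled log2 scale in Limousin replicate 2, against 4.19 to 4.22 in the other Limousin arrays, a gap large enough to mark that animal as far from the rest by Dixon's criterion at the 95% level for 4 samples. It was the only mark among 62 groups looked at, where chance gives about 1 in 20. The 16-base probe, on which the level of miR-143 rests, carried no such mark.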

How the results depend on the processing

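The difference of miR-143, -0.06, turned positive with the 75th percentile over all probes (0.27), quantile normalization (0.079), the median of detected probes (0.018), no scaling (0.79), the deposited table (0.22) and the GC and length trend removed (0.029, with or without the replicate block), and was -0.23 with normexp (limma adjusted p = 0.0928) and -0.21 without background correction (0.105). That of miR-145, -0.23, turned positive with the percentile over all probes (0.10), no scaling (0.62) and the deposited table (0.011). The deposited table is nearly the same scaling as the percentile over all probes, so they are not separate checks. It passed with the mean of the probes (-0.30), the 17-base probe (-0.37), no detection filter (-0.23, limma adjusted p = 0.0406) and the GC and length trend removed (-0.37, also with the block). The 113 calls, 37 higher and 76 lower, became 175 without scaling (173 and 2), 172 with normexp (26 and 146), 170 without background correction (27 of them higher) and 61 with the trend removed and the block. They split 104 and 30 with the percentile over all probes, 55 and 43 with quantile normalization, 40 and 59 with the median, and 81 and 28 in the deposited table. The ratio difference, 0.17, was 0.32 with quantile normalization (exact permutation p = 0.0286), 0.40 with the trend removed (0.0571), 0.28 with the mean of the probes (0.0571), -0.040 with normexp and -0.015 without background correction. The correlation of both miRNAs, 0.349, was -0.27 with quantile normalization, -0.042 with the mean of the probes, -0.39 with the trend removed, -0.21 in breed deviations and 0.97 without scaling. The cause of these shifts was not tested. Leaving out 1 array gave -0.09 to -0.03 for miR-143, -0.25 to -0.19 for miR-145, 71 calls (without Limousin replicate 1) to 142 (without Holstein-Friesian replicate 2) with 73 without Holstein-Friesian replicate 4, 0.13 to 0.22 for the ratio and 0.27 to 0.53 for the correlation. Arrays of the same replicate number held the same place within the row of their breed. Flagged spots numbered 1221 to 1247 at places 1 and 2, and 1486 to 1709 at places 3 and 4. The deviations of same-numbered animals correlated at -0.31, -0.25, -0.45 and 0.32, so the numbers were not taken to pair the animals. The replicate block is also a block for place. With it miR-143 stayed at -0.06, miR-145 at -0.23 (limma adjusted p = 0.260), and 84 miRNAs passed. No breed difference was fitted for the 14-base or 15-base miR-143 probe by itself. The 14-base probe was detected on no array, and the 15-base probe on none of Holstein-Friesian. Both do enter the mean of the probes, where miR-143 was at -0.020, and so the ratio and correlation given for that setting. With 4 animals a breed, the simulation recovered 10.7% of changes of 0.25 log2 units, over miRNAs picked at random from those tested. It gave no separate figure for miR-143 and miR-145, whose within-breed SDs were the smallest under the main scaling. Signals near background limit the short probes.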
